A study of Mus musculus with 14 samples.

Results

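Il7r, Flt3, Kit and Il2rg encode receptors, or a shared receptor chain, through which growth factors act on early lymphoid cells. These 4 genes, of 21883 protein-coding genes on chromosomes 1 to 19, X and Y, were examined in 9 lists of ChIP-seq peaks from mouse cells. Every peak overlapping a gene body or the 50 kb on either side of it was taken, which gave 172 of the 196179 peaks in the 9 lists. The peaks mark where Brg1, the ATPase of BAF chromatin remodelling complexes, or the transcription factor EBF1 was enriched. The study, by its title, concerned the C-terminal domain of EBF1 and the recruitment of Brg1. Peaks are not RNA, and the expression of the receptors was not analysed here.

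Brg1 was profiled in 5 libraries from fetal liver cells, all of genotype EBF1 -/- and strain C57BL/6. These began as c-kit+ lymphocyte progenitors of embryos of day 16 to 18, sorted through the product of Kit itself. They were transduced with pMys IRES GFP alone (the empty vector) or with the same vector carrying a form of EBF1. The forms were wt, dC (the C-terminal domain, CTD, deleted), dPLD (residues 480 to 520 deleted) and F-GATA3 (the CTD replaced by the TA1 domain of GATA3). All were grown for 14 to 20 days on OP9 stromal cells with IL7 at 5 ng/ml and with SCF and an additive labelled Flt3 at 10 ng/ml each, so that agents named for these receptors or their ligands were present in every fetal liver culture. The labelled stage was a block ahead of the pro-B stage with the empty vector, a partial one with dC and dPLD, and pro-B with wt and F-GATA3. EBF1 form and stage therefore cannot be told apart. The sample descriptions call the dC and dPLD cells pro-B cells, which conflicts with that stage label. Another 4 libraries, 2 of Brg1 and 2 of EBF1, came from pro-B cells of EBF1 fl/fl fetal liver transformed with Abelson virus (A-MuLV), in which exogenous wt or dC took the place of the endogenous EBF1. For these no growth factor was listed. Each group had 1 library, so no spread between replicates could be measured, nothing was tested across conditions, and every count below compares libraries. In a bulk culture, binding in fewer cells and weaker binding in each cell cannot be told apart.

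The product of Il7r binds interleukin 7 together with the common gamma chain, the product of Il2rg, and signals through the Janus kinases Jak1 and Jak3 to Stat5. Mice without Il7r make few B cells, and the loss of the human gamma chain causes X-linked severe combined immunodeficiency. Flt3 and Kit are related receptor tyrosine kinases whose ligands are Flt3 ligand and stem cell factor (SCF, from Kitl). Flt3 is known for its use in multipotent and common lymphoid progenitors and its loss at B-lineage commitment, where Pax5 is known to repress it. Kit is carried by stem cells and early progenitors and by many pro-B cells. Cells transformed by Abelson virus are known to grow without interleukin 7.

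The promoters are shown because the lists differed in which of the 4 transcription starts carried a peak. Il7r (gene ID 16197) spans chr15:9506159-9529941, Flt3 (14255) chr5:147330741-147400489 and Il2rg (16186) chrX:101264385-101268255, all on the minus strand of GRCm38. Kit (16590) spans chr5:75574987-75656722 on the plus strand. The sequences are those of RefSeq for GRCm38.p6, from 250 bases before to 50 after the start, written 5′ to 3′ along each gene. Capitals mark matches to 5 short motifs searched on both strands. These are the EBF1 core TCCCNNGGGA, the ETS motifs AGGAAGT and CCGGAAG, the GC box GGGCGG and the Runx motif TGTGGTT. None of the matches in these promoters overlapped another.
Il7r promoter, chr15:9529827-9530126, minus strand: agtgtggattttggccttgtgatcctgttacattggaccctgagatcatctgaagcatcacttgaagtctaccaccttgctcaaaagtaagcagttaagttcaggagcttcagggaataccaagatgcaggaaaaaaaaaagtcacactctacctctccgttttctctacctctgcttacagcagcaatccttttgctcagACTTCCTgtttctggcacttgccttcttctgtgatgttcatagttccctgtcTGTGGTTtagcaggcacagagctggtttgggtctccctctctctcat
Flt3 promoter, chr5:147400440-147400739, minus strand: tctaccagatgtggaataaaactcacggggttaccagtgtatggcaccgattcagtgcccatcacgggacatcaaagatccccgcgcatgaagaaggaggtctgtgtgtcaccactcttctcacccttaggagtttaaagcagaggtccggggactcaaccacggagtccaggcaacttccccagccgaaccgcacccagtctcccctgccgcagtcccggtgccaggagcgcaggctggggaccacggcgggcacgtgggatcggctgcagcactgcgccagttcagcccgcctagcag
Kit promoter, chr5:75574737-75575036, plus strand: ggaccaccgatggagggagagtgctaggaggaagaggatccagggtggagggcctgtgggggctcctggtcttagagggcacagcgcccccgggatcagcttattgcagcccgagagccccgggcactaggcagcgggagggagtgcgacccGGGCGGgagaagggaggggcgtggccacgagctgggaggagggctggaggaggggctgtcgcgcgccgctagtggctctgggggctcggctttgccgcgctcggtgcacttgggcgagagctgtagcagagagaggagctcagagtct
Il2rg promoter, chrX:101268206-101268505, minus strand: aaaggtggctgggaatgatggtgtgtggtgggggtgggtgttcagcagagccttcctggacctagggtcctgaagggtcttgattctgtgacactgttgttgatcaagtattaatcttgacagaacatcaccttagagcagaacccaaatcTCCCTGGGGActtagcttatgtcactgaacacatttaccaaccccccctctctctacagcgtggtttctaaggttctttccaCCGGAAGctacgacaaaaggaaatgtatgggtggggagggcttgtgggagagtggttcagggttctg

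Il2rg alone among the 4 held the EBF1 core, as TCCCTGGGGA at 99 to 90 bases upstream of its start (chrX:101268345-101268354). That core stood in 204 of 21262 promoters (0.959%), and in 89 of the 1147 promoters with an EBF1 peak over the start (7.76%). The Il2rg promoter also held CCGGAAG at 17 to 11 bases upstream, a motif found in 11.6% of promoters. Il7r carried ACTTCCT, the reverse strand of AGGAAGT, at 49 to 43 bases upstream. It also carried TGTGGTT from base 3 to base 9 after the start. These motifs stood in 9.07% and 4.71% of promoters. The Kit promoter held the GC box, as did 46.2% of promoters, and the Flt3 promoter held none of the 5 motifs. The GC content was 45.7% for Il7r, 50.3% for Il2rg, 61.0% for Flt3 and 69.0% for Kit, where the median promoter had 56.3%. A match describes letters and not a bound site.

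The fetal liver Brg1 list of the empty vector had 17687 peaks, those with EBF1 had 25072 to 30301, and the other 4 lists had 6155 to 24493. The lowest −log10 q was near 10 in the fetal liver and EBF1 lists, but 1.37 with wt and 1.33 with dC for A-MuLV Brg1, where the lists therefore reach weaker peaks. Peaks with a −log10 q of at least 20 numbered 5180 in the empty-vector list and 13810 to 18669 in the lists with EBF1. Sequencing depth is unknown, so the lack of a peak does not show the lack of a protein. The folds are the authors' enrichment at the summit of each peak, and each is set beside its percentile in the list it comes from. Of 7 B-lineage marker genes, all had a Brg1 peak within 50 kb in every list, with 24 peaks in the empty-vector list and 54 to 69 with the 4 EBF1 forms. For myeloid genes, 4 of 4 had a peak with the empty vector (26 peaks) and 3 of 4 with each EBF1 form (10 to 17 peaks). Of 5 T-lineage genes 4 had a peak in each fetal liver list, with 20 peaks for the empty vector and 24 to 29 with EBF1. Of 3 stromal genes 2 had one with the empty vector (6 peaks) and 1 with each EBF1 form (4 peaks). Over all protein-coding genes, 63.5% had a peak within 50 kb with the empty vector and 72.8% to 74.7% with the EBF1 forms. The marker totals come from lists of unequal length and were not recounted with equal lists. What part other cells in the cultures had in the results was not tested.

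Brg1 peaks were numerous at Flt3 and Il7r and few at Kit, and at Il2rg none was called with the empty vector. In the fetal liver lists, ordered as empty vector, wt, dC, dPLD, then F-GATA3, Flt3 had 9, 12, 13, 10 and 10 peaks. Il7r had 6, 7, 8, 7 and 7. Kit had 2, 1, 1, 2 and 2, and Il2rg had 0, 4, 3, 3 and 2. Flt3 thus had the most peaks in each of the 5 lists, and the 4 EBF1 forms differed from each other by at most 3 peaks at any gene. The windows differed in length, with 170 kb for Flt3, 124 kb for Il7r, 182 kb for Kit and 104 kb for Il2rg. Per 100 kb, Flt3 had 7.07 peaks and Il7r 5.66 with wt. With dPLD and with F-GATA3 these values were 5.89 and 5.66. The median protein-coding gene had 1 peak with the empty vector and 3 with wt. With wt, 96.8% of genes had fewer peaks than Flt3, 82.2% fewer than Il7r, 59.2% fewer than Il2rg and 25.3% fewer than Kit. By peaks per length of window, 91.8% of genes were lower than Flt3, 85.3% than Il7r, 72.9% than Il2rg and 27.6% than Kit. Together the genes had 17 peaks with the empty vector and 24 with wt, but this order depended on the length of the lists. When each list was held to its 17687 strongest peaks, the counts were 17 and 13, and Flt3 had 9 against 6. Il2rg then had no peak with the empty vector, wt, dC or dPLD and 1 with F-GATA3. With a −log10 q of at least 20, Il2rg had no peak in any fetal liver list.

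All 4 genes had a Brg1 peak within 50 kb with each EBF1 form, and 3 had one with the empty vector. Over all protein-coding genes the share with a peak was 63.5% with the empty vector, 74.7% with wt, 74.5% with dC, 73.5% with dPLD and 72.8% with F-GATA3. In A-MuLV cells 3 of the 4 had a Brg1 peak with wt (65.7% of genes) and 2 with dC (65.6%), and 3 had an EBF1 peak with wt (37.3%) and with dC (53.6%). The receptors were therefore not set apart by having a peak at all. Over the transcription starts, the lists differed in which of the genes carried a peak. With the empty vector 2 of the 4 starts, those of Il7r and Flt3, carried Brg1, where 22.4% of genes had a peak over a start. All 4 did with wt (46.5%), dPLD (46.5%) and F-GATA3 (44%), and 3 with dC (47.9%), which lacked Il2rg. This contrast depended on the length of the lists. With each list held to its 17687 strongest peaks, the empty vector kept Il7r and Flt3, and wt kept Il7r and Kit. In A-MuLV cells the starts of Il7r and Flt3 carried Brg1 with wt (34.1%), and none of the 4 did with dC (30.9%). EBF1 lay over the start of Il2rg alone, both with wt (2.04%) and with dC (5.95%).

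**Figure D1:**
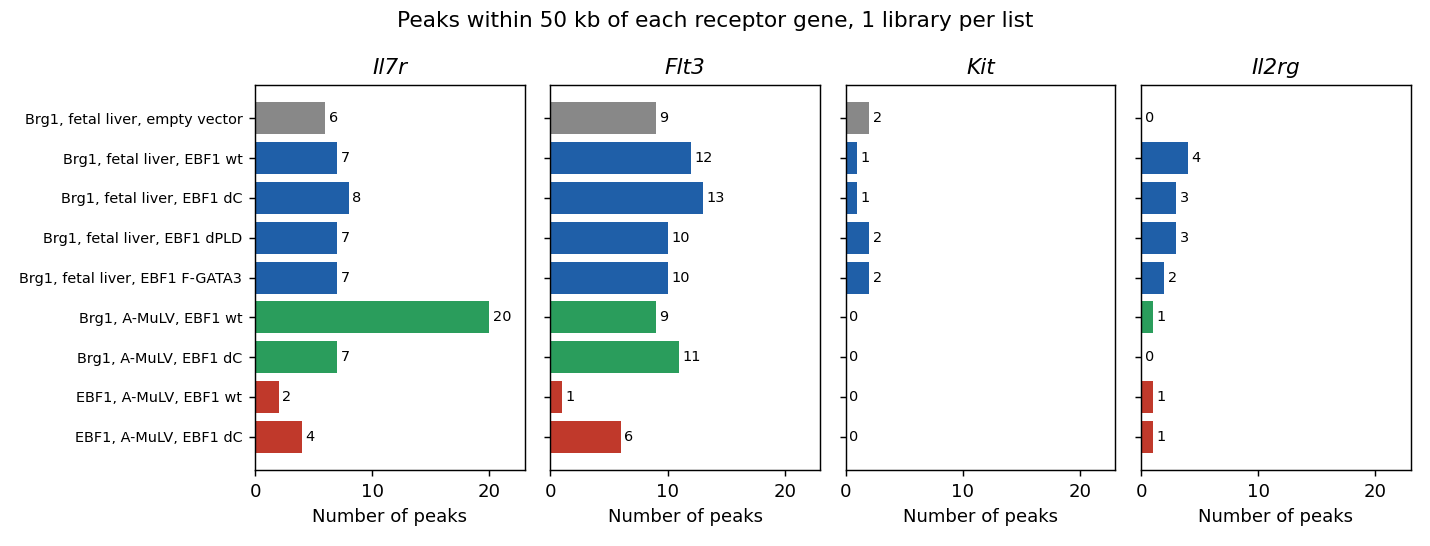
Number of peaks (horizontal axis) within 50 kb of each receptor gene in each of the 9 lists (rows), with 1 library per list and so no error bars. Il7r has 20 peaks in the A-MuLV Brg1 wt list and 7 in the dC list, Kit has none in the A-MuLV lists, and Il2rg has none with the empty vector.

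Of the 24 wt peaks near the receptors, 14 overlapped no empty-vector peak. These gained peaks made up 58.3% of the members' wt peaks, where the share over all wt peaks was 63.9%. They were 4 of 7 peaks at Il7r, 5 of 12 at Flt3, the single peak at Kit and all 4 at Il2rg. The other 10 wt peaks were shared with the empty vector, 3 of them at Il7r and 7 at Flt3. Kit and Il2rg had no shared peak. In the opposite direction, 7 of 17 empty-vector peaks had no wt peak (38.7% over the whole list), and 6 had none with any EBF1 form (29.3%). With lists of equal length 5 gained peaks were left. With a −log10 q of at least 20 there were 7, which include peaks whose empty-vector partner fell below the limit.

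Most gained peaks were also called with the altered forms. The dC list held 12 of the 14 (76.3% over all gained peaks), the dPLD list 12 (77.2%) and the F-GATA3 list 11 (70%). All 3 lists held 8 of them (57.3%). The 3 comparisons use the same wt and empty-vector libraries. All 10 shared peaks were called with each altered form, against whole-list shares of 96.6% for dC, 94.9% for dPLD and 89.5% for F-GATA3. Few peaks of the altered forms lacked a wt peak. There were 4 of 25 dC peaks (20.8% over the list), 1 of 22 dPLD peaks (13.1%) and 1 of 21 F-GATA3 peaks (9.36%). Not all were particular to a form: the dPLD and F-GATA3 peaks lay in the same stretch of Kit, under the wide dC peak, and 1 of the 4 dC peaks, inside Flt3, overlapped an empty-vector peak.

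Merging overlapping peaks of the 9 lists gave 42 sites near the receptors, of which 32 held a fetal liver Brg1 peak. All 5 fetal liver lists called 10 of the 32 (21.7% over all such sites), and 7 were called with the 4 EBF1 forms and not with the empty vector (24.4%). The empty vector alone called 6 (12.5%). Sites with wt, dC and dPLD alone numbered 3 (5.03%), 2 at Il2rg and 1 at Flt3. There were 2 with dC alone (6.56%), both inside Flt3, and 1 with wt and F-GATA3 alone (2.6%), also inside Flt3. Distances below run from the transcription start to the summit, positive in the direction of transcription, and for a site they are the median over lists.

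**Figure D2:**
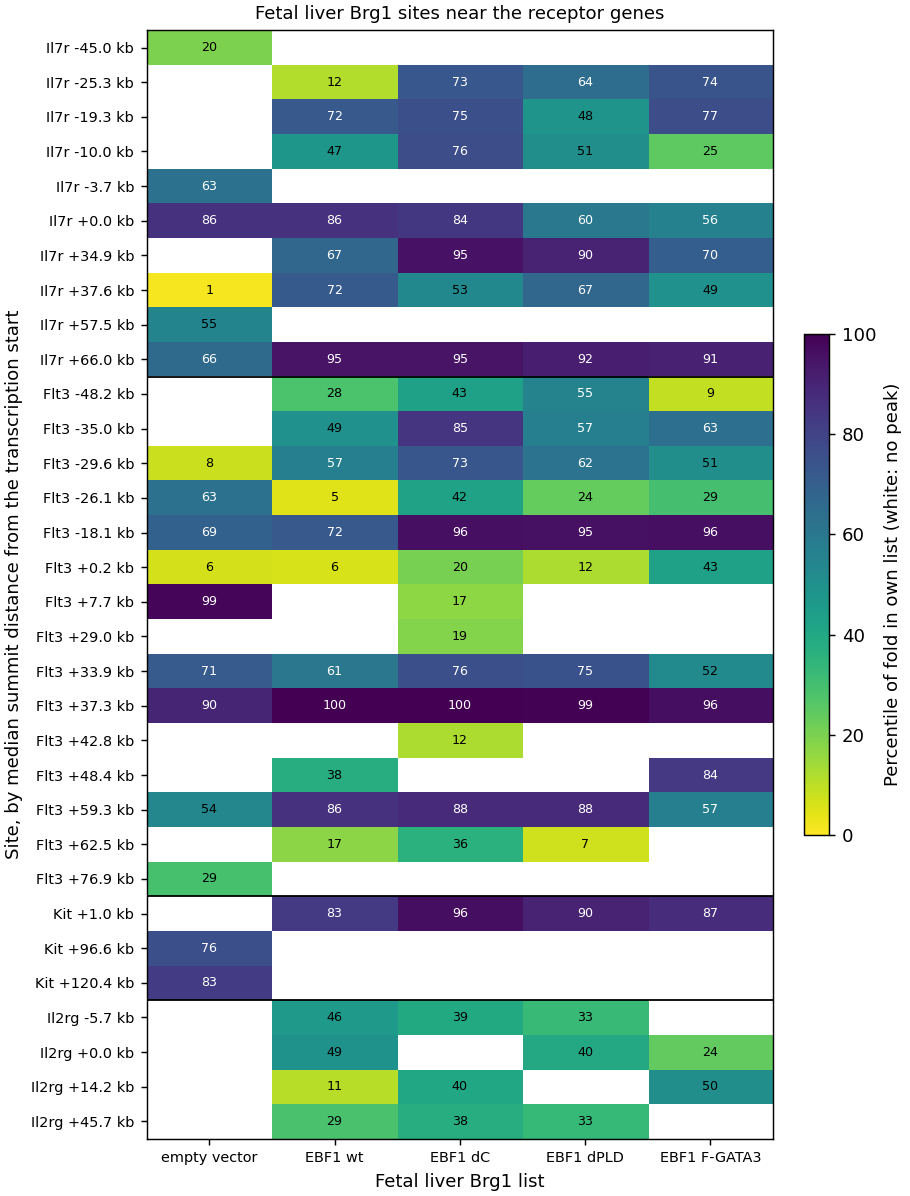
The 32 fetal liver Brg1 sites near the 4 receptor genes (rows, named by median summit distance from the transcription start in kb) in the 5 fetal liver lists (columns). Colour and printed number give the percentile of the authors' fold in the list concerned, and white cells have no peak: the site at +37.3 kb in Flt3 is among the highest of every list with EBF1, and sites called with the empty vector alone occur at Il7r, Flt3 and Kit.

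At Il7r, 10 fetal liver sites split into 3 called in all lists, 4 called with every EBF1 form and not with the empty vector, and 3 called with the empty vector alone. In the full lists, no site there told the 4 EBF1 forms apart. With equal lists, the site at -10.0 kb lost its F-GATA3 call and the site at -25.3 kb its wt call. With a −log10 q of at least 20 these calls were also lost, as was the dPLD call at -10.0 kb. The promoter site (chr15:9527366-9530573) had a fold of 8.52 with the empty vector, 11.6 with wt, 11.1 with dC, 7.53 with dPLD and 7.13 with F-GATA3. Its percentiles were 85.6, 85.6, 83.9, 59.8 and 55.9, in lists of unequal length. The percentile was thus alike with the empty vector and wt and lower with dPLD and F-GATA3. A peak over the start in all 5 fetal liver lists was found for 20.5% of protein-coding genes with a promoter in the table. The highest fetal liver wt fold near Il7r, 15.3 at percentile 94.7, lay at +66.0 kb inside Capsl, the neighbouring gene. That site had folds of 15.1 with dC, 12.5 with dPLD and 11.8 with F-GATA3, and 6.84 at percentile 65.5 with the empty vector. A site at +37.6 kb, between Il7r and Capsl, stood at percentile 1.34 with the empty vector and at 71.8 with wt.

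The gained sites of Il7r lay outside the gene body. The strongest with dC and dPLD was at +34.9 kb (chr15:9494040-9495932), beyond the 3′ end of the gene. Its fold was 8.63 with wt, 15.4 with dC, 12.0 with dPLD and 8.25 with F-GATA3, at percentiles 66.8, 95.2, 90.2 and 70.0. It ranked highest in the dC list, and it kept its 4 calls with equal lists and with a −log10 q of at least 20. The other gained sites lay upstream, at -10.0, -19.3 and -25.3 kb. The site at -19.3 kb, the strongest gained site with wt and F-GATA3, had folds of 9.21 (wt), 9.63 (dC), 6.74 (dPLD) and 8.98 (F-GATA3). At -25.3 kb the wt peak was near the bottom of its list (5.10, percentile 11.7), whereas dC, dPLD and F-GATA3 had percentiles of 72.7, 64.3 and 74.0. The wt peak there was lost with equal lists and the others were kept. Sites of the empty vector alone lay at -3.7 kb (fold 6.70), -45.0 kb (5.26) and +57.5 kb (6.32), all between percentiles 19.6 and 62.7. An enhancer upstream of Il7r is known from T cells, and whether the site at -3.7 kb is that element was not tested.

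**Figure D3:**
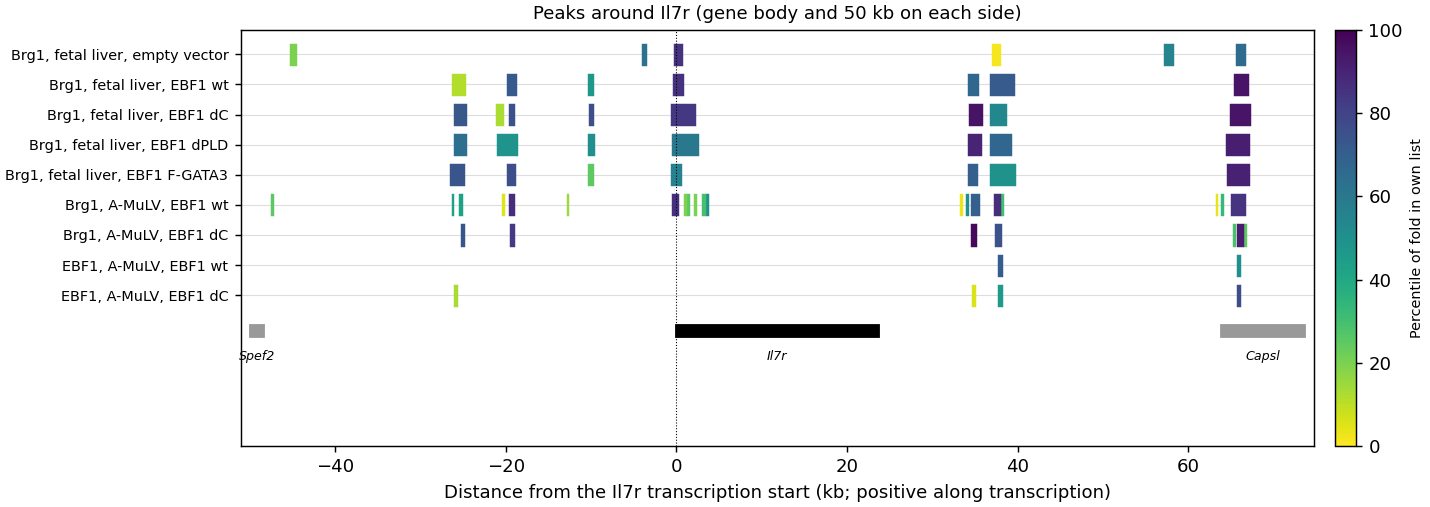
Peaks around Il7r in the 9 lists (rows) by distance from the transcription start in kb (horizontal axis), each drawn to scale and coloured by the percentile of the authors' fold in its list, with protein-coding genes below. The promoter carries Brg1 in all 5 fetal liver lists and in the A-MuLV wt list but not in the A-MuLV dC list, and the sites at +34.9, -10.0, -19.3 and -25.3 kb lack an empty-vector peak.

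Flt3 had 15 fetal liver sites, of which 7 were called in all 5 lists. The most enriched Brg1 peak near any of the 4 genes lay inside Flt3 at +37.3 kb (chr5:147361811-147364234). Its fold was 26.3 with wt, 24.9 with dC, 20.3 with dPLD and 14.6 with F-GATA3, at percentiles 99.7, 99.8, 99.3 and 96.4. With the empty vector the fold was 9.21 at percentile 89.6, so that the site ranked lowest there although it was already called. Neighbouring sites at +33.9 and +59.3 kb, also inside the gene, were called in all 5 lists with wt percentiles of 60.5 and 85.9. The promoter of Flt3 carried a weak peak in all 5 lists. Its fold was 4.62 with the empty vector, 4.73 with wt, 5.47 with dC, 5.00 with dPLD and 6.35 with F-GATA3, and the percentiles ran from 6.17 to 42.9. With a −log10 q of at least 20 the promoter kept its peak with F-GATA3 alone.

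The highest empty-vector fold near the receptors was also inside Flt3, at +7.7 kb (chr5:147392342-147393580). It was 13.1 at percentile 98.7, with a −log10 q of 48.2. With dC the site had a fold of 5.28 at percentile 16.8, and no peak was called there with wt, dPLD or F-GATA3 or in the A-MuLV lists. With equal lists or a −log10 q of at least 20, no peak but that of the empty vector was left at this site. The sites at +7.7 and +37.3 kb thus went in opposite directions between the empty vector and wt. The 1 Flt3 site called with the empty vector alone lay at +76.9 kb, downstream of the gene (5.52, percentile 29.1).

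The gained sites of Flt3 were weaker. A site at -35.0 kb, inside Pan3, whose product belongs to a deadenylase complex, had percentiles of 49.2 to 84.7 with the 4 EBF1 forms. It was the only gained site of Flt3 that kept all 4 calls with equal lists and with a −log10 q of at least 20. At -48.2 kb, inside Pan3, the percentiles ran from 9.33 with F-GATA3 to 55.4 with dPLD. The site at +48.4 kb, inside Flt3 (chr5:147351692-147352436), was called with wt (6.37, percentile 37.9) and F-GATA3 (9.99, percentile 83.6) and with neither dC nor dPLD. It was the only site near the receptors that had this pattern. Its wt peak was lost with equal lists, and its F-GATA3 peak was kept. The sites called with dC alone, at +29.0 and +42.8 kb, had folds of 5.35 and 5.09, at percentiles 18.7 and 12.4. Upstream, the site at -18.1 kb, which overlaps the noncoding gene D5Ertd605e, was called in all 5 lists. Its percentile was 69.0 with the empty vector, 72.0 with wt, 95.8 with dC, 95.5 with dPLD and 96.1 with F-GATA3.

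**Figure D4:**
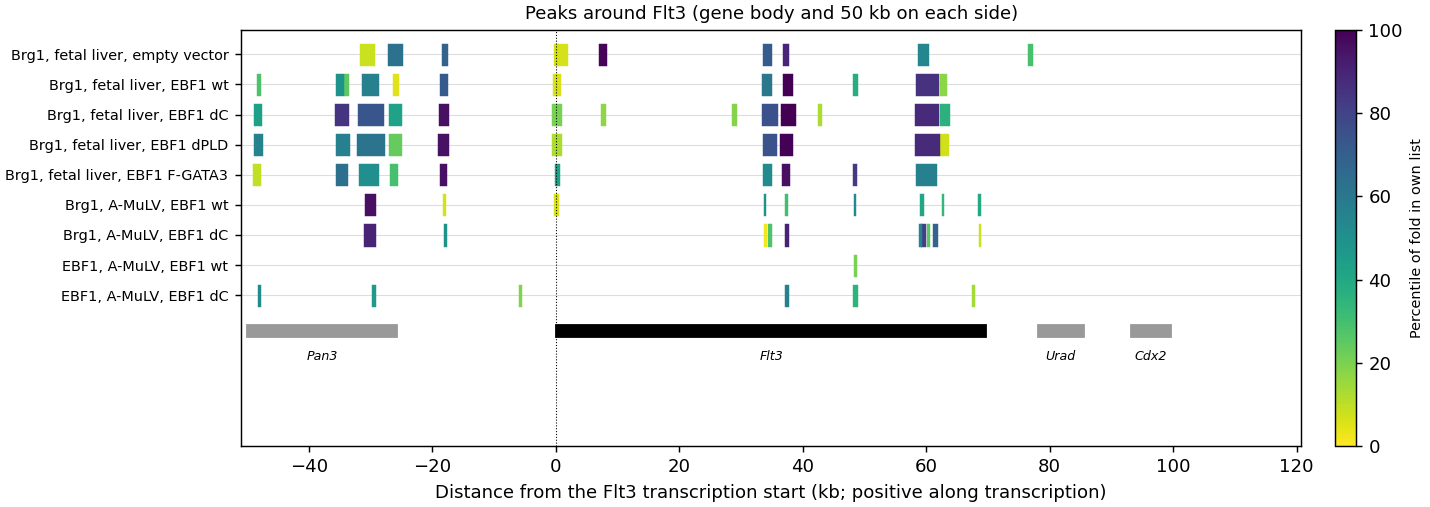
Peaks around Flt3 in the 9 lists (rows) by distance from the transcription start in kb (horizontal axis), each drawn to scale and coloured by the percentile of the authors' fold in its list, with protein-coding genes below. The peak at +7.7 kb is at percentile 98.7 with the empty vector and absent with wt, and the peak at +37.3 kb is above percentile 96 with each of the 4 EBF1 forms.

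Kit carried Brg1 at its promoter with every EBF1 form and not with the empty vector. Folds over the start were 10.9 with wt, 16.2 with dC, 11.9 with dPLD and 10.8 with F-GATA3, at percentiles 82.8, 96.2, 90.0 and 87.4. A start called with the 4 EBF1 forms and not with the empty vector was found for 20.7% of genes. The dC peak was 4517 bp wide and the wt peak 2299 bp. With dPLD and F-GATA3 the same stretch (chr5:75574304-75578859) was called as 2 peaks, the second with a fold of 8.15 and 6.14. The 4 peaks over the start remained with equal lists and with a −log10 q of at least 20. The empty-vector list instead had its 2 Kit peaks at +96.6 kb (7.48, percentile 75.6) and +120.4 kb (8.10, percentile 82.5), downstream of the gene, where no other list had a peak. The windows thus held peaks in all 5 fetal liver lists, but no Kit site was common to the empty vector and an EBF1 form.

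At Il2rg, all 4 wt peaks were gained, and none of the 4 sites was called with all of the EBF1 forms. The promoter (chrX:101267844-101269125) had a fold of 7.10 with wt, 6.25 with dPLD and 5.50 with F-GATA3, and no peak with dC or the empty vector. Their percentiles were 48.9, 39.7 and 24.1, so none ranked high. A start called with wt, dPLD and F-GATA3 and not with dC was found for 0.44% of genes, and a site called with those 3 forms alone made up 1.91% of fetal liver sites. The calls at Il2rg were close to the limit of the lists. The −log10 q was 18.1 with wt, 14.9 with dPLD and 11.1 with F-GATA3, and no fetal liver list kept a promoter peak with equal lists or with a −log10 q of at least 20.

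The other Il2rg sites lay at neighbouring genes. Wt, dC and dPLD peaks overlapped the start of Snx12, which encodes a sorting nexin, at +45.7 kb, with percentiles of 28.7, 37.6 and 33.1. The same 3 lists had peaks over the start of Med12, a subunit of the Mediator complex, at -5.7 kb, with percentiles of 46.4, 39.3 and 32.6. The site at +14.2 kb, at the edge of the transcription factor gene Foxo4, was called with wt (5.01), dC (6.50) and F-GATA3 (6.78). Of the peaks assigned to Il2rg by distance, those over the Il2rg start were thus the only ones touching its gene body.

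**Figure D5:**
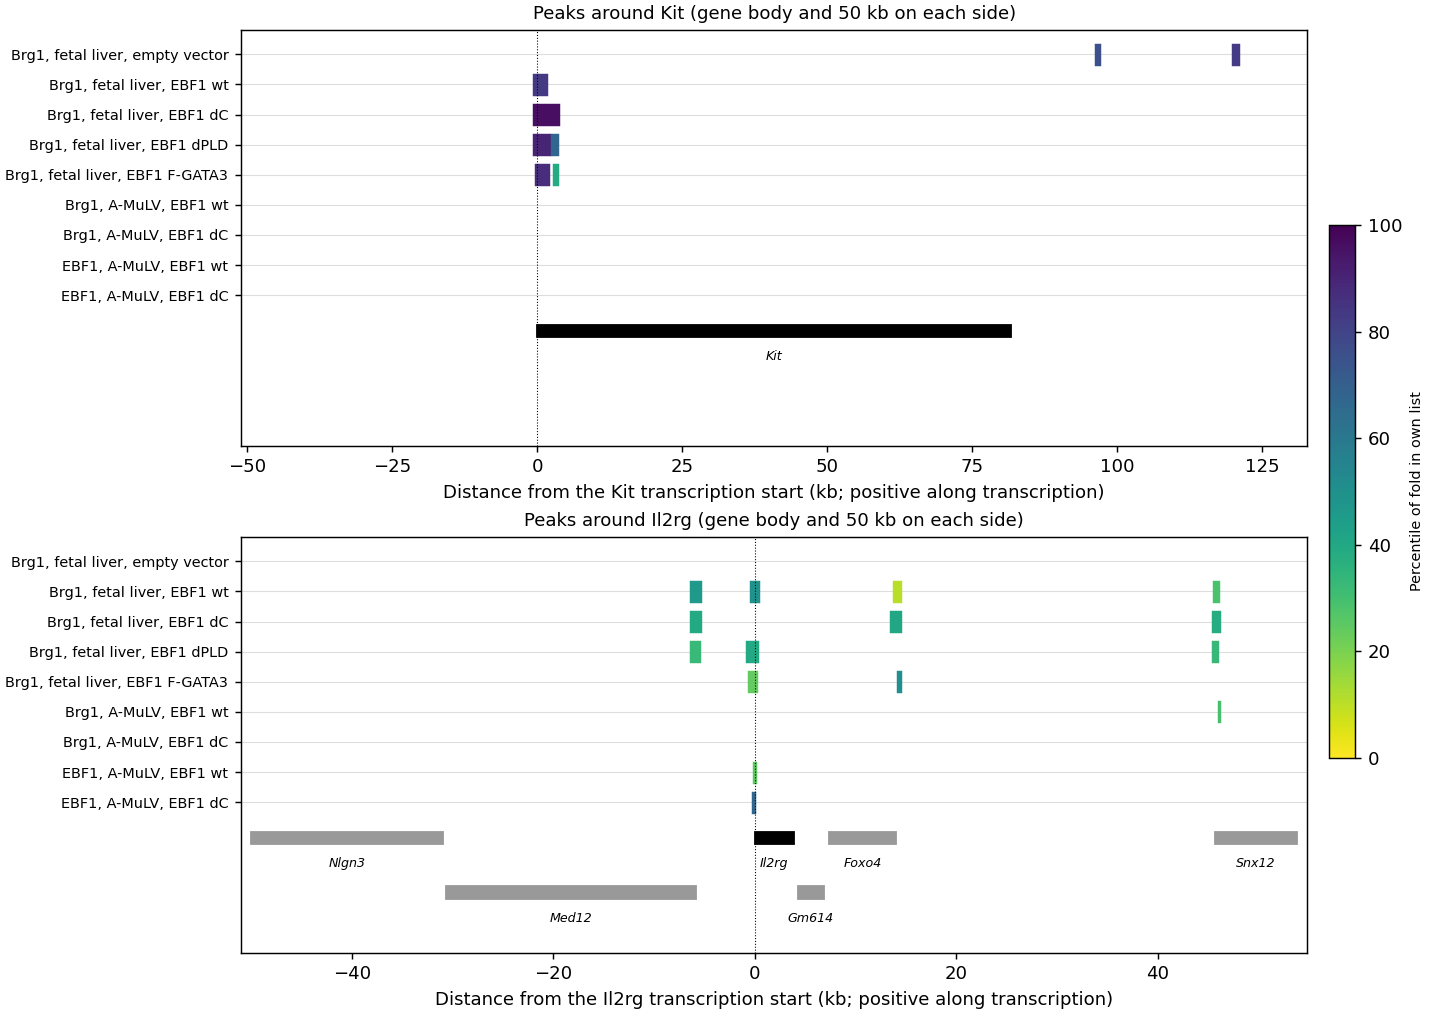
Peaks around Kit (top) and Il2rg (bottom) in the 9 lists (rows) by distance from each transcription start in kb (horizontal axis), each drawn to scale and coloured by the percentile of the authors' fold in its list, with protein-coding genes below. Brg1 covers the Kit start with the 4 EBF1 forms only, and EBF1 peaks from A-MuLV cells cover the Il2rg start with wt and with dC.

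In A-MuLV cells, Il7r and Flt3 carried nearly all of the Brg1 peaks. The Brg1 lists with wt and dC held 20 and 7 peaks at Il7r, 9 and 11 at Flt3, 1 and 0 at Il2rg and 0 and 0 at Kit. No A-MuLV peak of Brg1 or EBF1 within 50 kb was also the case for 27.9% of protein-coding genes. Of the 30 wt peaks, 11 were also called with dC, where the share over the whole list was 62.4%. They were 5 of 20 at Il7r, 6 of 9 at Flt3 and 0 of 1 at Il2rg. In reverse, 14 of 18 dC peaks were called with wt (65.6% over the list), with all 7 at Il7r and 7 of 11 at Flt3. Most Il7r peaks seen with wt alone were weak: with a −log10 q of at least 10, Il7r had 5 wt and 3 dC peaks, and with at least 20 it had 1 in each list. The summed counts of the 4 genes with at least 10 were 6 and 6.

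The Il7r body held 6 A-MuLV Brg1 peaks with wt and 0 with dC. The strongest of the 6, with a fold of 8.31 at percentile 86.2 and a −log10 q of 13.3, covered the promoter, and the other 5 had folds of 4.19 to 5.29. A start called with wt and not with dC was found for 7.55% of genes, and the reverse, seen at none of the receptors, for 4.4%. The Flt3 promoter had the same pattern, but its wt peak was weak (3.58, −log10 q 2.84). Distal Il7r sites differed in direction. At +34.9 kb the percentile was 70.1 with wt and 97.9 with dC, where the dC fold of 11.5 was the highest A-MuLV dC value near the receptors. At -25.3 kb it was 43.1 with wt and 73.1 with dC, and at -19.3 kb it was 87.1 with wt and 82.5 with dC. The site at +37.6 kb ranked higher with wt, at 87.4 against 74.6, and distal sites at +64.0, +63.3, +33.4, -12.8 and -47.4 kb had weak peaks with wt and none with dC. Inside Flt3, the site at +37.3 kb stood at percentile 30.4 with wt and 90.5 with dC. The site at -29.6 kb, over the start of Pan3, stood at 96.0 and 90.2.

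EBF1 peaks were found at Il7r, Flt3 and Il2rg and not at Kit. The wt list had 2, 1 and 1 of them and the dC list 4, 6 and 1. All 4 wt peaks were also called with dC (76.7% over the list), and 4 of the 11 dC peaks were also called with wt (42.1%). At Il2rg, EBF1 covered the promoter in both lists, with a fold of 7.05 (percentile 24.9) with wt and 11.0 (percentile 66.9) with dC. EBF1 over the start in both lists was found for 1.97% of genes. The EBF1 core shown above lay inside both peaks. From the middle of the core, the dC summit was 19.5 bp and the wt summit 90.5 bp away. The fetal liver Brg1 summits with dPLD, wt and F-GATA3 were 6.5, 45.5 and 59.5 bp away. Relative to the transcription start, the EBF1 summits lay at -114 bp with dC and -4 bp with wt. The Brg1 summits with dPLD, wt and F-GATA3 lay at -101, -49 and -35 bp. Core and start lie close together, so the summits do not single out the core. In the A-MuLV lists, no Brg1 peak was called at this promoter.

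The other EBF1 peaks common to wt and dC lay at distal sites. At Il7r they were the sites at +66.0 kb (wt 9.14, dC 13.4) and +37.6 kb (wt 12.0, dC 8.31), both of which carried Brg1 in all 7 Brg1 lists. At Flt3 it was the site at +48.4 kb (wt 6.87, dC 7.63), the site where fetal liver Brg1 was called with wt and F-GATA3 alone. A-MuLV Brg1 was called there with wt (5.58) and not with dC. These calls were weak: the EBF1 dC peak was lost with equal lists, which left 3 of the 4 wt peaks also called with dC, and both EBF1 peaks were lost with a −log10 q of at least 20. The A-MuLV Brg1 peak was lost with at least 10. The 7 EBF1 peaks of dC alone were 2 at Il7r, at +34.9 kb (6.04) and -25.3 kb (6.30), and 5 at Flt3. Those at Flt3 were at +37.3 kb (9.31), -48.2 kb (8.76), -29.6 kb (8.21), -5.8 kb (6.57) and +67.6 kb (6.43). With EBF1 lists of equal length, 2 of the 7 remained, both at Flt3.

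Of the 11 EBF1 sites near the receptors, 4 carried fetal liver Brg1 with the empty vector (17.5% over all EBF1 sites) and 9 with wt (55.9%). Those with Brg1 in the empty-vector list were the sites at +66.0 and +37.6 kb of Il7r and at +37.3 and -29.6 kb of Flt3. With dC, 7 sites carried Brg1 (48.9%), with dPLD 8 (52.1%) and with F-GATA3 9 (50.9%). The sites called with wt and not with dC were the Il2rg promoter and the +48.4 kb site of Flt3. In A-MuLV cells Brg1 lay at 6 of the 11 with wt (50.6%) and at 5 with dC (41.4%). Fetal liver Brg1 and A-MuLV EBF1 come from different cells, so the overlap is not a measurement of both proteins in the same cells. The EBF1 peaks of Flt3 at -5.8 and +67.6 kb met no Brg1 peak in any list.

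Genes with peak counts most like the members' over the 9 lists were found by the sum of absolute differences. For Il7r these were Jchain and Lrmp (10 each) and Grk2 (11), all with 16 to 18 peaks in the A-MuLV Brg1 wt list. For Flt3 they were Tmem104 (5), Os9 (7) and Fam168a (7). Kit was matched within 1 peak by 6 genes, of which the rule names Map2k6, Gbp6 and Cabyr, and Il2rg within 2 peaks by 5 genes, of which it names Zfp677, Armc10 and Gbp2.

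Around the receptors, 49 genes of ligands, related receptors, signalling proteins and targets were examined in the same way. A gained wt peak lay within 50 kb of 44 of them, or 89.8%, where the share over all protein-coding genes was 67.5%. For 41 of the 44, at least 1 gained peak was called with all 3 altered forms. The listed genes had a median of 4 gained peaks, and 57.3% of all gained peaks were called with all 3. The share over all protein-coding genes was not computed, so this count is not read as a trait of the listed genes. More peaks with wt than with the empty vector were found for 35 genes, fewer for 7 and as many for 7, and 56.5% of all genes had more with wt. Windows of these genes can overlap, and gene-rich windows hold more peaks, so the count is a description.

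Of 6 ligand genes, 4 had a gained peak. Il7, which encodes the ligand of the Il7r product, had 1 wt Brg1 peak (7.10) that was also called with the 3 altered forms, and no empty-vector peak. Flt3l had 8 wt and 10 empty-vector peaks. Kitl, which encodes SCF, had no peak in any of the 9 lists. Il2, a ligand of the gamma chain complex, had 2 empty-vector peaks and none with EBF1. Among 13 related receptors 10 had a gained peak, and the highest, at fold 22.3, was shared by the windows of Il4ra and Il21r, whose products pair with the gamma chain. Pdgfra, which encodes a receptor related to Kit, had no peak in any list.

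Signalling genes had gained peaks throughout. All 16 genes of kinases and transducers had them, and the highest folds were at Lyn (19.1), a Src-family kinase, and Stat5b (17.8), the transcription factor downstream of both cytokine and tyrosine kinase receptors. Stat5b had 5 empty-vector peaks and 16 or 17 with each EBF1 form, in lists of unequal length. These counts were not repeated with equal lists. All 7 inhibitor genes had gained peaks, the highest at Socs3 (15.8) and Socs2 (14.0), which encode feedback inhibitors of Jak signalling. So did all 7 survival and cell cycle genes, with Ccnd3 (15.2), a D-type cyclin, and Bcl2l1 (14.7), which encodes the survival protein Bcl-xL, at the top. Some EBF1 peaks of the wt list near these genes had folds of 20 or more. The highest per gene were 50.9 at Sh2b3, 48.1 at Jak2, 29.0 at Pik3cd, 25.5 at Pim1, 25.1 at Socs1, 23.3 at Cish and 22.6 at Ptpn11. These genes were named because of such folds, so they are no comparison for the receptors. Near the 4 receptor genes the highest was 12.0, at percentile 70.9 of that list.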

How the data were processed

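ChIP-seq peak lists of 9 libraries were used (7 of Brg1, 2 of EBF1). The 5 input samples have no list and were not used here. Per the submitters' processing notes, the tools were MACS2 2.1.2, deepTools 3.3.1, Bowtie2 2.3.3.1 and SAMtools 1.9, with the build GRCm38 (mm10). Neither the peak threshold nor the input used for a given library is stated in the sources used here. The deposited lists give peak and summit positions, the authors' fold enrichment (a ratio of ChIP signal to background at the summit), the authors' −log10 p and −log10 q, and a deposited score of 10 times the −log10 q. Low thresholds add weak peaks, and a longer list overlaps others more often. Fixation also differed: per the labels' protocols, EBF1 libraries had 1% formaldehyde only, while Brg1 libraries also had EGS, with formaldehyde at 1% for A-MuLV and 2% for fetal liver cells.

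Unplaced scaffolds were left out, which keeps chromosomes 1 to 19, X and Y. Intervals sharing at least 1 bp counted as overlapping. Gene positions came from RefSeq GRCm38.p6, and starts, strands and promoters from 21262 promoters of 17491 genes. Whole-list shares have exact Clopper-Pearson 95% intervals no wider than 1.06 percentage points on either side, which cover counting error only. No test was possible, as each group had 1 library. The computations used Python 3.11.15 with pandas 2.3.3 and were tested on simulated intervals. The receptor genes and gene lists were chosen with earlier results of these data known, and the 4 motifs besides the EBF1 core after the sequences had been seen.

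Named were the 4 members, their neighbours, the 3 genes most like each member in counts, and, per role of the pathway list, up to 2 genes with the highest gained fold and any with an EBF1 wt fold of 20 or more. Kitl, Il2 and Pdgfra were added after their values were seen. Peaks named were every EBF1 peak, the 3 highest Brg1 peaks per gene and list, those over a start, and sites differing between the empty vector and wt with a fold of 8 or more. Weaker sites were added after their values were seen. Alternatives were windows of 10 kb or the gene body, a −log10 q of at least 20, lists of equal length by −log10 p, overlap of 50% of the shorter peak, and summits within 200 bp. A further setting, a minimum −log10 q of 10, was chosen after seeing the data.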

Additional observations from a re-analysis of the deposited data

Results flagged for a closer look

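At Il7r, the Brg1 peak counts with dC and wt differed in opposite directions in the 2 cell systems. The dC count minus the wt count was 1 in fetal liver cells (8 against 7 peaks) and -13 in A-MuLV cells (7 against 20). The fetal liver value does not come from a new site: the site at -19.3 kb was called as 2 peaks with dC, and the value was 0 with 10 kb windows and in the gene body. It was 1 with a −log10 q of at least 20 and with equal lists, where the site at -25.3 kb lost its wt peak and kept its dC peak. Each count comes from 1 library, and the difference between the systems was not tested. With a −log10 q of at least 10 the A-MuLV value was -2 (3 against 5), and with at least 20 it was 0.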

How the results depend on the processing

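No paired analysis was possible because each group had 1 library and no result came from a test. Depth is unknown, and list length and threshold set most counts. Where a cause is not given by the setting itself, the cause was not tested. Totals over the 4 genes are ordered as empty vector, wt, dC, dPLD, then F-GATA3 for fetal liver, then A-MuLV Brg1 wt and dC, then EBF1 wt and dC. As reported they were 17, 24, 25, 22, 21, then 30, 18, then 4, 11. With 10 kb windows they were 8, 12, 13, 11, 10, then 14, 9, then 2, 5, and in gene bodies alone 6, 9, 10, 9, 9, then 13, 9, then 2, 4. With a −log10 q of at least 20 they were 10, 13, 16, 15, 16, then 2, 1, then 2, 4. With at least 10, only the A-MuLV Brg1 totals moved, to 6 and 6. With equal lists they were 17, 13, 16, 17, 17, then 30, 18, then 4, 5.

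In place of the 14 gained peaks there were 7 with a −log10 q of at least 20 and 5 with equal lists. Of these, 7 and 5 were also called with dC, 6 and 5 with dPLD, and 6 and 4 with F-GATA3. Not all of the 7 are among the 14. The wt peaks at +37.6 kb of Il7r and -29.6 kb of Flt3 counted as gained there because their empty-vector peaks (−log10 q 11.3 and 13.3) fell below the limit. A-MuLV Brg1 wt peaks also called with dC fell from 11 to 4 with a −log10 q of at least 10 and to 0 with at least 20, and dC peaks called with wt from 14 to 4 and 0. EBF1 wt peaks also called with dC went from 4 to 2 with a −log10 q of at least 20 and to 3 with equal lists. In place of 7 of dC alone there were 2 with that limit and 2 with equal lists. With the limit they were the peak at +37.3 kb of Flt3 and the Il2rg promoter peak. The Il2rg peak (−log10 q 28.5) is not among the 7 and counted there because the wt peak (13.6) fell below the limit. Requiring 50% overlap or summits within 200 bp kept each of these overlap counts within the limits used, with the largest change in A-MuLV dC peaks called with wt, from 14 to 12 and 10. The 44 pathway genes with a gained peak became 42 with 10 kb windows and 38 with equal lists.

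The sign turned in 4 comparisons of single genes. For Flt3, wt minus empty-vector peaks went from 3 to -3 with equal lists. The A-MuLV dC minus wt count of Flt3 went from 2 to -1 with a −log10 q of at least 20. For Kit, wt minus empty-vector peaks went from -1 to 1 with 10 kb windows and in the body alone, which leave out the distal empty-vector peaks. Of 260 single-gene values under these alternatives, 165 stayed within the limits used, 91 moved and 4 turned in sign as above. A difference stayed if its sign was kept, whatever its size, as for Il7r in A-MuLV cells, from -13 to -2. It moved if it went to or from 0. Counts of 0 under every setting, such as those of Kit in the A-MuLV lists, are among the 165.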
